A study of Mus musculus with 6 samples.

Results

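The 3 libraries compared here are ChIP-seq of H3K9me2, H3K27me3 and H3K9me3 in Dicer KO/Dnmt1 cKO mouse ESCs, 1 library for each mark, taken from 6 libraries of the series by the labels of genotype and antibody. ESCs are the pluripotent cells of the early embryo in culture, and the labels give the cell type as ESC, the genotype as Dicer/Dnmt1 -/- and the background strain as E14. The methods of the study start instead from Dnmt1 loxP/loxP ESCs of strain C57BL/6, in which Dicer was deleted constitutively with CRISPR/Cas9 and Dnmt1 was removed by a tamoxifen-induced Cre. The other 3 libraries hold the same marks in Dicer KO ESCs, which lack Dicer and keep Dnmt1, so all 6 libraries share the loss of Dicer and none comes from unmodified cells. The number of days after Dnmt1 deletion is not in the labels used here, and DNA methylation was not measured in these libraries. The H3K9me2 antibody came from Abcam and the other 2 from Active Motif.

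DNMT1 copies DNA methylation onto new strands after replication, so its loss lowers DNA methylation as cells divide, and DICER cuts double-stranded RNA into small RNAs. H3K9me2 is written by EHMT2 and EHMT1 over broad domains of inactive chromatin, H3K9me3 by SETDB1 and the SUV39H enzymes at heterochromatin, satellites and transposons, and H3K27me3 by the Polycomb complex PRC2 (EZH2, EED, SUZ12) at CpG-rich starts of silent developmental genes. Where the 3 marks lie together and where they part in cells short of DNA methylation is the question of this comparison. With 1 library per mark there is no replicate, so no difference between marks could be tested against replicate error, and intervals cover counting error only.

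The deposited values were converted back to whole reads in tiles of 2 kb. The autosomes held 19891895 reads of H3K9me2, 20682467 of H3K27me3 and 18378044 of H3K9me3, and the median tile held 16, 15 and 14 reads in the same order. Of 1236182 autosomal tiles, 1146347 held at least 10 reads summed over the 3 Dicer KO libraries and were used. A relative level is the reads of a mark divided by that mark's mean over these tiles, so a level of 1 is the mean tile. An input library was not used here, so the part of mappability and copy number in any level that the marks share was not tested, and base composition was taken into account only for the correlations over windows.

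Sequence from 250 bases before to 50 after the gene start is shown for the start most in favour of each mark. CpG content is a feature with which the levels of the marks differ below. They are read from NCBIM37, the build of the files, written in the direction of the gene, with each CpG in capitals. A start of Nap1l5 is added, chosen after its values were seen, because the first start led by H3K9me3 lies where reads of all 3 marks are piled up.
Glce (H3K9me2, chr9:61918364-61918663, minus strand): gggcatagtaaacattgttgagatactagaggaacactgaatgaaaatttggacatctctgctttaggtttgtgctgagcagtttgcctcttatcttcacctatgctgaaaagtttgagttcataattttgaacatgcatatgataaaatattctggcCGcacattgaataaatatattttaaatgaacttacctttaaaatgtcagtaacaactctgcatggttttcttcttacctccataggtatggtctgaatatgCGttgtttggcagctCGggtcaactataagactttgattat
Hoxb8 (H3K27me3, chr11:96142969-96143268, plus strand): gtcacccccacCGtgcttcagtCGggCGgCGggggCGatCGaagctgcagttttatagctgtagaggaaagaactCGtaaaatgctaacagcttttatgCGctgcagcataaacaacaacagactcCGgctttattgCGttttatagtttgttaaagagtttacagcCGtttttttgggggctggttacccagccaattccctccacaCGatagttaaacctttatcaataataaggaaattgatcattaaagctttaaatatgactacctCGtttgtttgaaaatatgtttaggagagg
Gm10800 (H3K9me3, chr2:98507409-98507708, minus strand): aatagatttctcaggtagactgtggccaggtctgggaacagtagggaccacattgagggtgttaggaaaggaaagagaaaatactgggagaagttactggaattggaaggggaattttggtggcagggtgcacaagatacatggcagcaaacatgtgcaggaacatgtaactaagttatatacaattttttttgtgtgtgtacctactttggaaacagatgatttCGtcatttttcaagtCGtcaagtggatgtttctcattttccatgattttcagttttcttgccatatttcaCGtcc
Nap1l5 (H3K9me3, chr6:58857071-58857370, minus strand): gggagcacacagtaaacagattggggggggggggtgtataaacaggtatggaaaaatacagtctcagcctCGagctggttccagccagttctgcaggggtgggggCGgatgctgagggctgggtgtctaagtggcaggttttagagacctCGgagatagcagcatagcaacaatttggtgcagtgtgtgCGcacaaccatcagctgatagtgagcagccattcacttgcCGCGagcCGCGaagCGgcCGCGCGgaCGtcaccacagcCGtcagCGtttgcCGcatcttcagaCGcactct

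The Hoxb8 sequence held 13 CpGs, the Nap1l5 sequence 17, and those of Glce and Gm10800 held 3 each. Among 21418 autosomal protein-coding genes, the same 300 bases held a median of 12 CpGs, 3 or fewer in 25.2% and 13 or more in 48.4%. Relative to what their C and G content allows, CpGs stood at 0.97 for Hoxb8, 0.701 for Nap1l5, 0.322 for Glce and 0.266 for Gm10800. The start of Nap1l5 lies within the gene Herc3, and the other 3 starts lie in no other annotated gene.

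H3K27me3 had the most uneven distribution of the 3 marks over most of the genome. The highest 5% of tiles began at a level of 2.11 for H3K27me3, 1.68 for H3K9me2 and 1.69 for H3K9me3. Without the 0.1% of tiles with most reads, the coefficient of variation above counting error stood at 0.569 for H3K27me3, 0.374 for H3K9me3 and 0.356 for H3K9me2. Counting error made up 14.8% of the variance between tiles for H3K27me3, against 31.6% for H3K9me2 and 32.2% for H3K9me3, so single tiles say least about the H3K9 marks.

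H3K9me3 was instead the mark most concentrated in a few tiles. Its reads in the 0.1% of tiles with most reads made up 5.78% of the library, against 1.16% for H3K9me2 and 1.29% for H3K27me3. A single tile, chr2:98506001-98508000 at the gene model Gm10800, held 641652 reads of H3K9me3, 96437 of H3K9me2 and 79315 of H3K27me3. All 3 levels there were far above the mean, at 40206, 5575 and 4410.

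Levels of H3K27me3 also carried on over neighbouring tiles further than those of the other marks. With counting error removed, the correlation between a tile and its neighbour 2 kb away reached 0.837 for H3K27me3, 0.653 for H3K9me2 and 0.65 for H3K9me3. At 10 kb it was 0.626, 0.382 and 0.368, and at 1000 kb it was 0.0889, 0.0982 and 0.0652, in the same order. The lead of H3K27me3 was thus a matter of short and middle distances, and at 1000 kb H3K9me2 had the highest of the 3 values.

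The 3 marks rose and fell together across the genome. Over 23306 windows of 100 kb, each with at least 40 usable tiles, the Spearman correlation was 0.659 between H3K9me2 and H3K9me3, 0.632 between H3K9me2 and H3K27me3 and 0.559 between H3K27me3 and H3K9me3. Which pair was most alike depended on a correction for base composition: after division by the mean in 50 bins of GC content the values were 0.632, 0.727 and 0.586 in the same order, so H3K9me2 was then closest to H3K27me3. Without that division, the partial Spearman correlations, given the remaining mark, were 0.476, 0.423 and 0.244. Windows share mappability and copy number between libraries, and these correlations are descriptions across windows of 1 library each.

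Single tiles gave lower values. Over the 1146347 tiles the Spearman correlation was 0.428 between H3K9me2 and H3K27me3, 0.419 between H3K9me2 and H3K9me3 and 0.377 between H3K27me3 and H3K9me3. Without the 0.1% of tiles with most reads and with counting error removed, the correlations were 0.458, 0.508 and 0.366. The same mark in Dicer KO and in Dicer KO/Dnmt1 cKO ESCs gave, over the windows, 0.983 for H3K27me3, 0.941 for H3K9me2 and 0.927 for H3K9me3, so each mark was closer to itself in the other genotype than to another mark in its own.

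**Figure D1:**
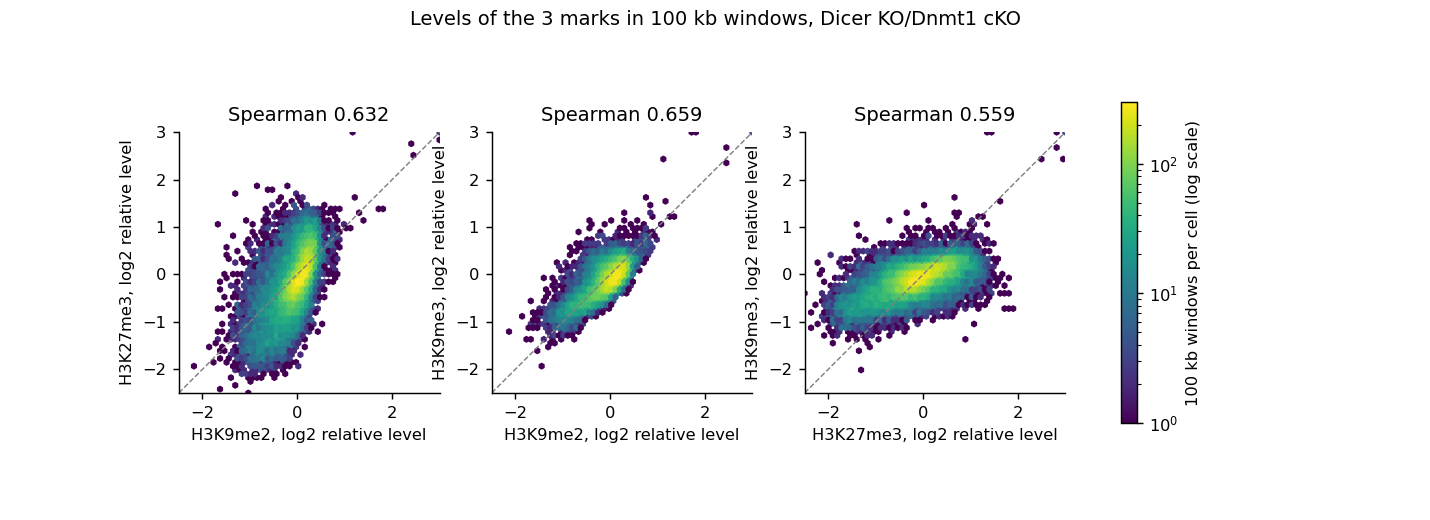
Each panel plots the log2 relative level of 2 marks against each other in 23306 windows of 100 kb in Dicer KO/Dnmt1 cKO ESCs, with colour for the number of windows on a log scale, a dashed line for equal levels, and windows beyond the axes drawn at their edge. Points lie along rising clouds with Spearman correlations of 0.632, 0.659 and 0.559, and the spread along the H3K27me3 axis is the widest.

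In Dicer KO ESCs the H3K9 marks were about as alike, at 0.669 over the windows, whereas H3K27me3 and H3K9me3 were less alike, at 0.451 against 0.559. Given H3K9me2, the partial correlation of that pair stood at 0.0812 in Dicer KO ESCs and 0.244 without Dnmt1 as well. For single tiles the pair gave 0.337 and 0.377, and for 10 kb tiles 0.401 and 0.47. The pair was higher in the Dicer KO/Dnmt1 cKO at each of these sizes. The Dicer KO library of H3K27me3 was the deeper one, with 26389642 autosomal reads, and with 1 library per mark and genotype this difference could not be tested.

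Windows at the low end were shared between marks more than windows at the high end. Among the 5% of windows with the lowest level of H3K9me2, 62.3% were also among the lowest for H3K9me3 and 37.7% among the lowest for H3K27me3. Among the 5% with the highest H3K9me2, 26.2% were also among the highest for H3K9me3 and 22.1% among the highest for H3K27me3. In all, 326 windows were lowest in all 3 marks and 112 were highest in all 3. Gene starts lay in 84.2% of the windows lowest in H3K9me2 and in 81.2% of those lowest in H3K9me3, while 56.9% of all windows held none.

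The highest windows of H3K27me3 differed from those of the other marks in gene starts and base content. A gene start lay in 53.8% of the 5% of windows highest in H3K27me3, against 23.1% for H3K9me2 and 23.5% for H3K9me3. Median GC content in these windows reached 47.5% for H3K27me3, 43.5% for H3K9me3 and 42.9% for H3K9me2. With more starts per window the levels of the H3K9 marks fell and that of H3K27me3 fell less. From windows without a start to windows with 8 to 16 starts, the median level went from 1.07 to 0.553 for H3K9me2, from 0.989 to 0.61 for H3K9me3 and from 0.943 to 0.802 for H3K27me3.

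Marks were called separated in a window where one level was at least 1.5 times the other and the 95% counting interval of their ratio left out equality. H3K9me2 exceeded H3K27me3 in 2994 windows, 12.8% of all, and H3K27me3 exceeded H3K9me2 in 1920, or 8.24%. Which of these 2 counts was larger turned with the scale, since with the median log2 ratio set to 0 they were 2150 and 2677, and with a trimmed mean of log2 ratios 2186 and 2644. For H3K9me3 over H3K27me3 the count was 2902, or 12.5%, and for H3K27me3 over H3K9me3 it was 2221, or 9.53%. The H3K9 marks parted far less often, with H3K9me3 above H3K9me2 in 421 windows (1.81%) and H3K9me2 above H3K9me3 in 33 (0.142%).

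The windows that parted had different base content. Median GC content was 48.1% where H3K27me3 exceeded H3K9me2 and 40.9% where H3K9me2 exceeded H3K27me3, with 41.4% over all windows. Windows with more H3K27me3 than H3K9me2 held a mean of 1.78 gene starts, against 0.865 for the opposite and 0.879 for all windows. The 33 windows with more H3K9me2 than H3K9me3 were poor in gene starts, with a mean of 0.424. Of them 75.8% held no start, against 56.9% of all windows.

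Each separation kept its sign in the Dicer KO libraries, which took no part in the calls. At 1.5 times or more again, the share was 91.5% for H3K9me2 over H3K27me3, 92.1% for the reverse, 97.2% for H3K9me3 over H3K27me3, 95.3% for its reverse and 89.8% for H3K9me3 over H3K9me2. Of the 33 windows with more H3K9me2 than H3K9me3, 33 kept the sign and 0 again reached 1.5 times. On the mean scale used here, the median window had a log2 ratio of 0.11 for H3K9me2 over H3K27me3 and 0.10 for H3K9me2 over H3K9me3, and with this shift taken off only 2 windows with more H3K9me2 than H3K9me3 were left and 713 with more H3K9me3.

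The windows most in favour of H3K27me3 were led by those of 3 of the 4 Hox clusters, whose transcription factors set position along the body axis. The window with Hoxd13 to Hoxd4, chr2:74500001-74600000, held 3368 reads of H3K27me3, 479 of H3K9me2 and 477 of H3K9me3. Its levels were 3.75, 0.554 and 0.598, and H3K27me3 exceeded the next mark by 2.65 on the log2 scale (95% counting interval 2.51 to 2.79). The windows of Hoxb9 to Hoxb3 and of Hoxc10 to Hoxc4 followed at 2.47 and 2.38. After them came Lmx1b, a homeobox gene of limb and neurons, at 2.21 and Six3 with Six2, homeobox genes of forebrain and kidney, at 2.19. The 5 windows stood between 2.69 and 3.08 in the Dicer KO.

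Windows most in favour of H3K9me3 were of a different kind, with reads of all 3 marks piled up in 4 of 5. The window chr2:98500001-98600000 held 828669 reads of H3K9me3, 129007 of H3K9me2 and 107006 of H3K27me3, a log2 ratio of 2.80 over the next mark. The window chr9:3000001-3100000, with 12 predicted genes such as Gm10722, stood at 2.70, and 2 windows without an annotated gene, chr9:35100001-35200000 and chr12:3100001-3200000, at 2.63 and 2.49. In these 4 windows H3K27me3 and H3K9me2 were also above the mean, with levels from 2.55 to 121 and from 3.35 to 152. Only the fifth, chr13:120200001-120284312 at the end of the chromosome with Paip1, had the other marks below the mean, at 0.72 for H3K9me2 and 0.61 for H3K27me3 beside 2.21 for H3K9me3.

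For H3K9me2 the ratios of the leading windows were small, and 4 of the 5 windows held a protein-coding gene. The window of Lpp, chr16:24600001-24700000, held 1111 reads of H3K9me2, 614 of H3K9me3 and 429 of H3K27me3, with levels of 1.28, 0.769 and 0.477. H3K9me2 exceeded H3K9me3 there by 0.74 on the log2 scale (95% counting interval 0.60 to 0.88). Rabgap1l stood at 0.69, Elmo1, a regulator of cell movement, at 0.68, a window with only the gene model Gm13924 at 0.65, and Herc2 with Oca2, a pigmentation gene, at 0.64. In the Dicer KO these 5 windows were at 0.33 to 0.55, above 0 in each but lower.

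Runs of neighbouring windows with the same mark highest differed in length. The longest run for H3K9me2 was 3600 kb at Ctnna2, a catenin gene of neurons (chr6:73500001-77100000), with levels of 1.03 for H3K9me2, 0.793 for H3K27me3 and 0.883 for H3K9me3. For H3K27me3 it was 3400 kb with 45 genes from Cdh13 past Foxf1a and Foxc2 (chr8:121500001-124900000), at 0.825, 1.6 and 0.893 in the same order. For H3K9me3 it was 2000 kb at Cntn5, a neuronal cell adhesion gene (chr9:10900001-12900000), at 0.881, 0.614 and 1.13. H3K9me2 was the highest mark in 44.3% of windows, H3K27me3 in 34% and H3K9me3 in 21.6%, but the order turned with the scale: with each library divided by its median window, the shares were 27.8%, 42.9% and 29.3%.

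A tile was rich in a mark with at least 3 times its mean. Most tiles rich in H3K27me3 or H3K9me3 were not rich in the other, but they overlapped 12.9 times as often as the share over all tiles. There were 10704 tiles rich in H3K27me3 (0.934% of tiles), 2782 rich in H3K9me3 (0.243%) and 439 rich in H3K9me2 (0.0383%). H3K27me3 and H3K9me3 shared 334 tiles, which is 3.12% of the first (95% Wilson interval 2.81% to 3.47%) and 12% of the second (10.9% to 13.3%). H3K9me2 shared 285 tiles with H3K27me3, 64.9% of its own and 2.66% of the other's, and 312 with H3K9me3, 71.1% and 11.2%. These shares depended on the threshold: a threshold of 2 times the mean gave 20.7% of the smaller set with H3K27me3 and 9.6% with H3K9me3, while the 1% of tiles with most reads of each mark gave 5.01% and 6.4%. For H3K27me3 and H3K9me3 the share of the smaller set was 13% at 2 times the mean and 4.4% for the 1% with most reads. Each share at 3 times the mean exceeds the background of rich tiles among all tiles given above. At 2 times the mean the backgrounds were larger, at 6.7% for H3K27me3 and 2.14% for H3K9me3. The sets of the 1% with most reads held 1.15% of all tiles for H3K9me2, 1.03% for H3K27me3 and 1.13% for H3K9me3.

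Most of what was shared lay in tiles rich in all 3 marks at once. These numbered 262, and they held 5.44% of all H3K9me3 reads, 0.937% of H3K9me2 and 0.849% of H3K27me3. In the Dicer KO libraries 95.8% of them were again rich in H3K9me2, 93.5% in H3K27me3 and 97.7% in H3K9me3. The Dicer KO also had 262 tiles rich in all 3 marks, of which 230 were the same tiles. When these Dicer KO tiles were left out, a choice made after seeing the data, H3K27me3 and H3K9me3 shared 91 tiles, 0.871% of the first and 3.59% of the second, beside backgrounds of 0.221% and 0.912%. H3K9me2 then shared 25.3% of its 198 tiles with H3K27me3 and 38.9% with H3K9me3.

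**Figure D2:**
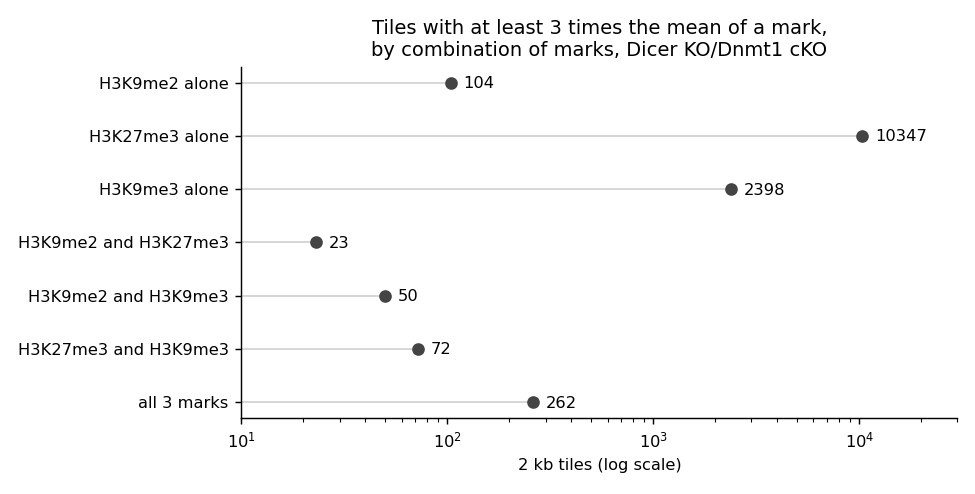
Points give the number of 2 kb tiles, on a log axis, with at least 3 times the mean of a mark in Dicer KO/Dnmt1 cKO ESCs, for each combination of marks. Tiles rich in H3K27me3 alone (10347) and in H3K9me3 alone (2398) are the largest classes, and 262 tiles are rich in all 3.

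Tiles rich in 1 mark alone differed in what they contained. The 10347 tiles rich in H3K27me3 alone had a median GC content of 51.1% and 1.6 CpGs per 100 bases, 12.2% of them held a gene start and 59.4% lay in a gene. The 2398 tiles rich in H3K9me3 alone had a GC content of 44.9% and 1.15 CpGs per 100 bases, and only 0.959% held a start and 25.1% lay in a gene. Among the 1133091 tiles rich in no mark, GC content was 41.5%, 1.49% held a start and 41.3% lay in a gene. In the Dicer KO, 73.4% of the first set were again rich in H3K27me3 and 71.5% of the second in H3K9me3, but of the 104 tiles rich in H3K9me2 alone only 30.8% were again rich in it.

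In tiles rich in H3K9me3 alone the other marks were lower than in tiles rich in none. The median H3K9me2 level was 0.636 against 0.983, and in the Dicer KO library 0.633 against 0.985. H3K27me3 stood at 0.778 against 0.89, and at 0.74 against 0.871 in the Dicer KO. In tiles rich in H3K27me3 alone H3K9me2 was at 0.867 against 0.983 and H3K9me3 at 0.877 against 0.877. In the Dicer KO both were lower there, with H3K9me2 at 0.774 against 0.985 and H3K9me3 at 0.785 against 0.915.

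Rich tiles of H3K27me3 and H3K9me3 lay near each other more often than tiles in general, most of all at short distance, but few had such a neighbour. With the tiles rich in all 3 marks in the Dicer KO left out, 3.32% of H3K9me3-rich tiles had an H3K27me3-rich tile within 2 kb, against 1.57% of all tiles. Within 10 kb it was 8.29% against 4.77%, and within 50 kb 21% against 14.8%. For H3K27me3-rich tiles, 0.785% had an H3K9me3-rich tile within 2 kb against 0.409% of all tiles, 2.03% within 10 kb against 1.63%, and 8.02% within 50 kb against 7.04%.

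The 5 tiles with most of both H3K27me3 and H3K9me3 were all rich in H3K9me2 too. After the tile of Gm10800 came chr9:35112001-35114000, with levels of 2551 for H3K9me3, 284 for H3K27me3 and 366 for H3K9me2. The tile chr17:39980001-39982000 was the only one of the 5 with H3K27me3 highest, at 147 beside 93 for H3K9me3 and 22 for H3K9me2. A tile in Chl1, a neural cell adhesion gene, stood at 362 for H3K9me3, 83.8 for H3K27me3 and 111 for H3K9me2, and chr9:3024001-3026000 at 684, 76.7 and 97.1.

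Tiles rich in H3K27me3 and H3K9me3 but not in H3K9me2 were looked up after these values were seen, and there were 72. The strongest, chr17:13498001-13500000 outside annotated genes, held 440 reads of H3K9me3, 172 of H3K27me3 and 50 of H3K9me2, and a tile in Filip1l held 116, 177 and 48. A tile in Smo, the receptor-like signal transducer of the Hedgehog pathway, held 300 reads of H3K9me3, 84 of H3K27me3 and 43 of H3K9me2. H3K9me2 was not absent there: its level was 2.89, 2.77 and 2.49 in these tiles, just under the threshold of 3. Over the 72 tiles its median level was 2.17, still above the mean tile. Both H3K27me3 and H3K9me3 were rich again in the Dicer KO in each of these 3 tiles.

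The longest unbroken run of rich tiles was the same for H3K9me2 and H3K27me3. It spanned 74 kb at Sfi1 and Drg1 (chr11:3026001-3100000) with mean levels of 25.7 for H3K9me2, 31.4 for H3K27me3 and 32.9 for H3K9me3. For H3K9me3 the longest run spanned 82 kb from the Ugt1a genes to Hjurp (chr1:90108001-90190000), at 5.7, 7.36 and 6.9. In both runs the 3 marks were nearly equal, and whether these cells or the reads hold more copies of these stretches than the reference was not tested. Single tiles made up 83.2% of H3K9me3 runs, 76.7% of H3K9me2 runs and 67.2% of H3K27me3 runs.

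CpG content separated H3K27me3 from the H3K9 marks. In 58170 tiles with under 0.25 CpGs per 100 bases the mean level was 1.08 for H3K9me2, 0.965 for H3K9me3 and 0.839 for H3K27me3. In 2327 tiles with at least 6 CpGs per 100 bases it was 0.224 for H3K9me2, 0.452 for H3K9me3 and 1.34 for H3K27me3. From 0.5 CpGs per 100 bases upwards H3K9me2 was lower at every step, whereas H3K9me3 kept a level of at least 0.931 up to 3 CpGs per 100 bases and fell beyond. GC content differs between these tiles as well, and its part in the levels was not tested.

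At gene starts the mean level of the H3K9 marks dipped and that of H3K27me3 rose, over 17708 autosomal protein-coding genes with all tiles usable. In the tile of the start the mean level was 0.658 for H3K9me2, 0.731 for H3K9me3 and 1.13 for H3K27me3, against 0.892, 0.918 and 0.987 at 50 kb upstream. For the fifth of starts with most CpGs it was 0.257 for H3K9me2, 0.461 for H3K9me3 and 1.16 for H3K27me3. These starts held 94 to 312 CpGs, counted over a stretch shorter than 10 kb. On both sides, at 2 kb, H3K27me3 stood higher than in the tile of these starts, at 1.27. These means of H3K27me3 rest on a part of the starts: over the 10 kb around these starts its median was 0.689 and its 95th percentile 3.7, beside medians of 0.532 for H3K9me2 and 0.576 for H3K9me3. In the group of starts next in CpG content the 3 medians were nearly equal, at 0.6 for H3K27me3, 0.59 for H3K9me2 and 0.602 for H3K9me3. For the fifth with fewest CpGs, the levels at the start were 1.08 for H3K9me2, 0.969 for H3K9me3 and 1 for H3K27me3, so the marks lay close together.

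**Figure D3:**
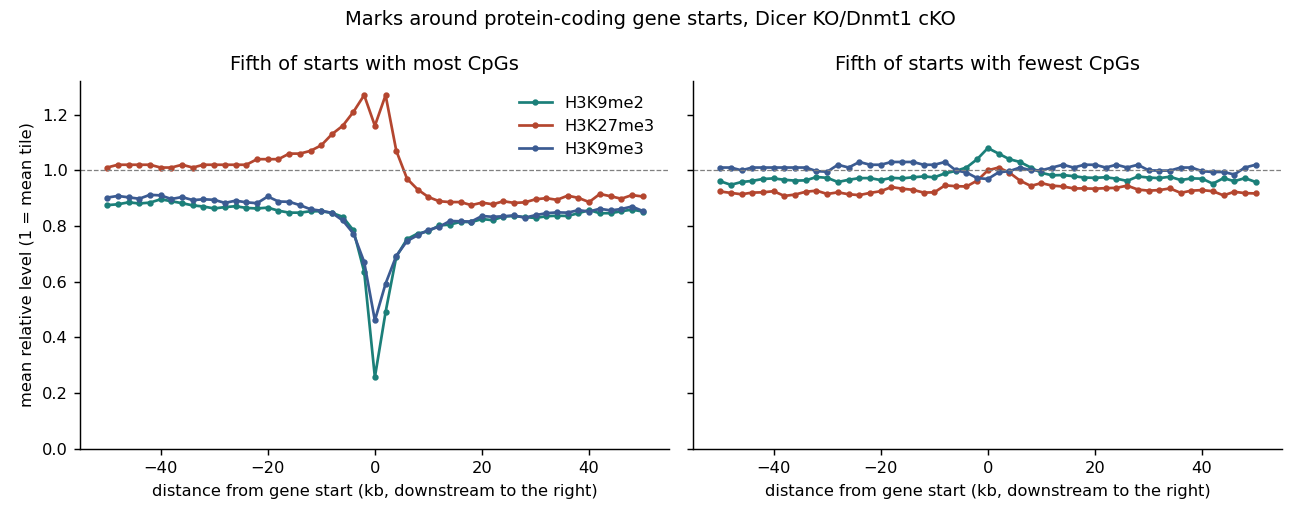
Lines give the mean relative level of each mark in 2 kb tiles up to 50 kb on either side of protein-coding gene starts in Dicer KO/Dnmt1 cKO ESCs, for the fifth of starts with most CpGs (left) and with fewest (right), with a dashed line at the mean tile. At CpG-rich starts H3K9me2 drops to 0.257 and H3K9me3 to 0.461 while H3K27me3 stands at 1.16, and at CpG-poor starts the 3 lines run close together.

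For single genes the level was taken over the 10 kb around the start, and a start was called high at 1.5 times the mean or more, or low at the mean divided by 1.5 or less, with a 95% counting interval that leaves out the mean. H3K27me3 was high at 24.8% of the 17708 starts and low at 37.7%. H3K9me2 was high at 1.59% and low at 41.3%, and H3K9me3 was high at 1.74% and low at 44%. High H3K27me3 without another high mark was found at 4148 starts, high H3K9me3 alone at 165 and high H3K9me2 alone at 101. H3K27me3 and H3K9me3 were high together, without H3K9me2, at 75 starts, and all 3 marks at 55.

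A further 3710 protein-coding starts had a tile below the minimum of reads. Without the minimum their median levels were 0.289 for H3K27me3, 0.37 for H3K9me2 and 0.451 for H3K9me3, and at least 88.9% of them were low in each mark. The minimum therefore left out starts with few reads in all 3 libraries, and medians given for a list of genes lack such members. Whether these starts lack the marks or are hard to map was not tested.

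Genes that direct development carried H3K27me3 with little of the H3K9 marks. Of 40 Hox genes, 38 were high in H3K27me3, 0 in H3K9me2 and 0 in H3K9me3, with median levels of 3.41, 0.335 and 0.514. Of 75 other developmental transcription factor genes, 73 were high in H3K27me3 and 0 in either H3K9 mark, with medians of 3.5, 0.52 and 0.602. The medians over all protein-coding starts were 0.867 for H3K27me3, 0.751 for H3K9me2 and 0.714 for H3K9me3. In the fifth of starts with most CpGs they were 0.689, 0.532 and 0.576. The H3K9 levels of the developmental transcription factor genes were thus close to those of CpG-rich starts in general. Lists of genes are described by counts and medians only, beside these values and the shares above.

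The 4 Hox clusters did not carry H3K27me3 alike. The median over genes was 1.9 for the 12 Hoxa genes, 3.96 for the 10 Hoxb genes, 4.34 for the 9 Hoxc genes and 3.1 for the 9 Hoxd genes, while the median H3K9me2 stayed between 0.272 and 0.405. Hoxd11 had the highest level, with 542 reads of H3K27me3, 28 of H3K9me2 and 48 of H3K9me3. Hoxb13, with 113 reads of H3K27me3, 48 of H3K9me2 and 36 of H3K9me3, was among the 2 not called high, at an H3K27me3 level of 1.26. Hoxb1 had the most of both H3K9 marks, at levels of 1.24 for H3K9me2 and 1.27 for H3K9me3 beside 3.45 for H3K27me3. Neighbouring Hox genes share tiles, so they are not independent of each other.

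Among the developmental transcription factors Pax7, of muscle and neural crest, and Lhx1, of the early body axis and kidney, had the highest H3K27me3. Pax7 held 559 reads of H3K27me3, 46 of H3K9me2 and 61 of H3K9me3, and Lhx1 held 546, 68 and 48. Tbx20, of the heart, and Olig1, of oligodendrocytes, were the lowest, at H3K27me3 levels of 0.634 and 1.07. Tbx20 was poor in all 3 marks, with 57 reads of H3K27me3, 27 of H3K9me2 and 32 of H3K9me3.

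Other gene families kept intermediate levels. Over all protein-coding starts, 24.8% were high in H3K27me3, 1.59% in H3K9me2 and 1.74% in H3K9me3. Of 23 clustered protocadherin genes, which code for neuronal surface proteins, 22 were high in H3K27me3 and 0 in the H3K9 marks. Their medians were 2.08 for H3K27me3, 0.763 for H3K9me2 and 0.815 for H3K9me3. Neighbouring protocadherin genes, such as Pcdhb21 and Pcdhb22, share tiles, so they are not independent of each other. Of 96 keratin and keratin-associated genes, 45 (46.9%) were high in H3K27me3, 8 (8.33%) in H3K9me2 and 6 (6.25%) in H3K9me3. Their medians were 1.46, 1.19 and 1.07, and this was the list with the highest median of H3K9me2. Krt4 was high in all 3, with 262 reads of H3K27me3, 138 of H3K9me2 and 136 of H3K9me3. Of 23 germline genes, 10 (43.5%) were high in H3K27me3, among them Mael, Sycp2 and Ddx4, and 0 in H3K9me2 or H3K9me3. Their medians were 1.37, 1.03 and 0.978. With so few of all starts high in an H3K9 mark, 0 of 23 says little about the germline or the protocadherin genes. Sycp2, of the meiotic chromosome axis, held 200 reads of H3K27me3, 87 of H3K9me2 and 81 of H3K9me3.

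Receptor families of smell lay near the mean tile in the H3K9 marks and below it in H3K27me3. Their H3K9 levels were above the medians of all protein-coding starts, which were 0.751 for H3K9me2, 0.714 for H3K9me3 and 0.867 for H3K27me3. These receptor starts were poor in CpGs, with medians of 4 per kb for olfactory and 3.9 for vomeronasal genes against 14.6 for all. In the fifth of starts with fewest CpGs the medians were 1.05 for H3K9me2, 0.915 for H3K9me3 and 0.901 for H3K27me3. The H3K9 levels of the receptor genes were thus close to those of CpG-poor starts in general. High H3K27me3 was found at 5.54% of olfactory and 0% of vomeronasal receptor genes, against 24.8% of all starts. Olfactory receptor genes, 1029 of 1081 measured, had medians of 1.06 for H3K9me2, 0.915 for H3K9me3 and 0.845 for H3K27me3, and vomeronasal receptor genes, 241 of 319 measured, had 0.971, 0.915 and 0.801. Vmn1r238 was an exception with 205 reads of H3K9me3 beside 59 of H3K27me3 and 76 of H3K9me2. Cytochrome P450 genes, 93 measured, had medians of 1.02, 0.978 and 1.02 and both kinds of exception. Cyp26a1, which breaks down retinoic acid, had an H3K27me3 level of 4.04 beside 0.576 for H3K9me3, and Cyp2c67 had 2.21 for H3K9me3 beside 0.445 for H3K27me3. Zinc finger (Zfp) genes, 280 of 362 measured, had medians of 0.699, 0.652 and 0.506. Low levels were found at 46.1% of them for H3K9me2, 53.2% for H3K9me3 and 64.6% for H3K27me3, against 41.3%, 44% and 37.7% of all starts. Zfp629 held 291 reads of H3K9me3 beside 40 of H3K9me2 and 94 of H3K27me3.

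Genes of pluripotency, which ESCs express, were high or low in H3K27me3 about as often as all starts. Of 12 such genes 10 were measured and Sox2 and Dppa5a fell below the minimum of reads. High H3K27me3 was found at 30% of the 10 against 24.8% of all starts and low H3K27me3 at 40% against 37.7%, so these counts do not check the labelled cell type. Pou5f1 held 32 reads of H3K9me2, 46 of H3K27me3 and 31 of H3K9me3, and Zfp42 held 36, 21 and 56. Nanog was at levels of 0.416, 0.3 and 0.802, and in the Dicer KO its H3K9me3 level was 1.74. Klf4, Tbx3, Utf1 and Fgf4 were high in no mark, while Lin28a, Dppa3 and Esrrb were high in H3K27me3 at 1.98, 2.37 and 2.13. ChIP-seq of these marks does not measure expression.

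Housekeeping genes and the writers of the marks were poor in all 3. The 7 housekeeping genes measured of 13 had medians of 0.405 for H3K9me2, 0.334 for H3K27me3 and 0.614 for H3K9me3. None of the 7 was high in any mark. B2m, of antigen presentation, had the highest H3K27me3 of them at 1.33, Eef2 the highest H3K9me3 at 1.08, and Tbp, Eef1a1, Ppia and Rpl13a had H3K27me3 levels from 0.2 to 0.678. The writers Ezh2, Ezh1, Jarid2, Ehmt1, Suv39h2 and Trim28 (a partner of SETDB1) had medians of 0.364, 0.295 and 0.476. Histone cluster genes, 31 of 67 measured, had 0.532, 0.967 and 0.551. Of them 4 were high in H3K27me3, 12.9% against 24.8% of all starts, such as Hist3h2ba at 2.38. Hist1h2ba and Hist1h2aa, which are among the 4, share a start region with the same reads. As members of these lists fell below the minimum, their counts were also made without it: 11 of 13 housekeeping genes and 10 of 10 writers were then low in H3K27me3, against 47.2% of all protein-coding starts. Low H3K9me2 was found at 10 of 13 and 8 of 10, against 49.8%, and low H3K9me3 at 11 of 13 and 10 of 10, against 51.8%. In the fifth of starts with most CpGs the medians were 0.532 for H3K9me2 and 0.576 for H3K9me3. H3K9 levels below the mean were thus not particular to these lists.

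**Figure D4:**
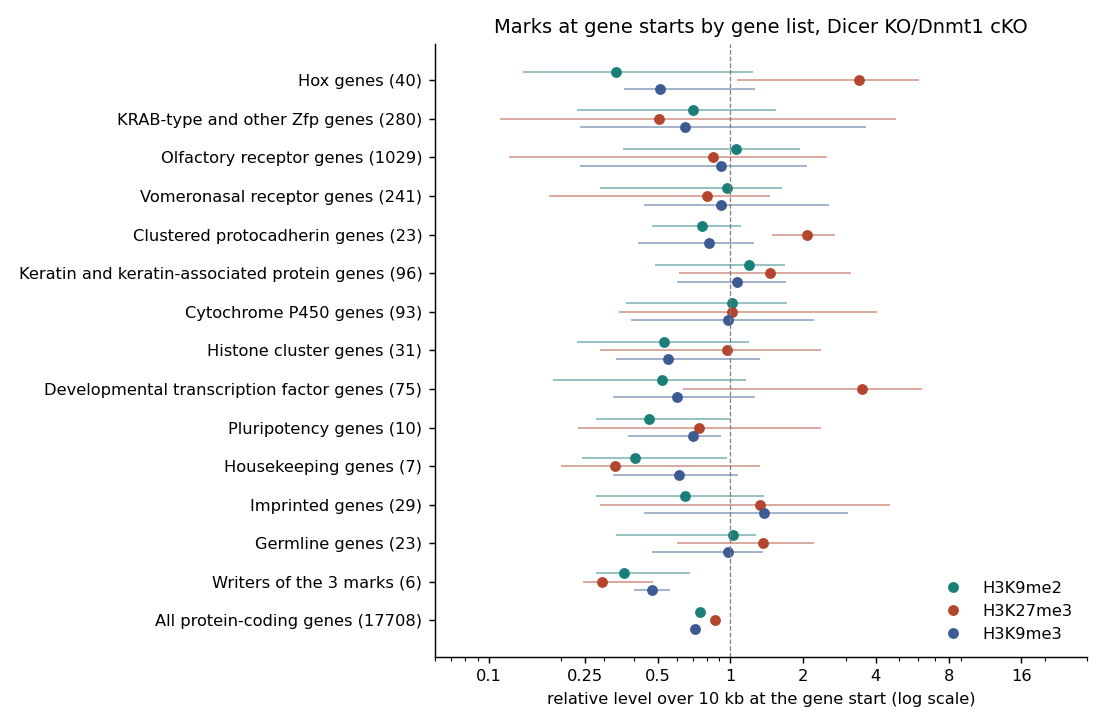
Points are median relative levels over the 10 kb around gene starts for each list of genes and mark in Dicer KO/Dnmt1 cKO ESCs, on a log axis, with the number of genes measured in brackets, lines from the lowest to the highest member (not drawn for all genes) and a dashed line at the mean tile. H3K27me3 lies far to the right of both H3K9 marks for Hox genes (3.41) and developmental transcription factor genes (3.5), and for imprinted genes H3K27me3 (1.32) and H3K9me3 (1.38) lie together.

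The starts most in favour of H3K27me3 over both other marks were of developmental and signalling genes. Hoxb8, shown above, held 493 reads of H3K27me3, 26 of H3K9me2 and 29 of H3K9me3, so H3K27me3 exceeded the next mark by 3.91 on the log2 scale (95% counting interval 3.37 to 4.46). Ebf3 and Uncx, of neurons and of the somites, followed at 3.78 and 3.74, and Neurod2, a neuronal factor, at 3.70. Lef1, of WNT signalling, Hoxc8 and Tcfap2a, of neural crest and skin, stood between 3.58 and 3.61. In the Dicer KO these 7 ratios were between 3.58 and 4.44. Over the whole gene body in place of the start the ratio was 1.78 for Uncx, 0.96 for Ebf3 and 0.78 for Lef1.

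Among the 8 starts most in favour of H3K9me3, 3 were of imprinted genes and 2 of predicted genes in stretches of piled-up reads. Gm10800 and Gm10106, the predicted genes, stood at 2.81 and 2.79. Nap1l5, an imprinted gene whose start is shown above, held 231 reads of H3K9me3, 40 of H3K9me2 and 47 of H3K27me3, a log2 ratio of 2.47 (95% counting interval 2.02 to 2.92). Nnat, at 2.24, and Plagl1, a growth-restricting zinc finger gene, at 2.21, are imprinted as well. Gm5805, Olfr212 and Eapp, at 2.30, 2.25 and 2.22, made up the 8, and in the Dicer KO all 8 were between 2.32 and 3.23. Over the gene body the ratio was 0.38 for Plagl1, 0.44 for Olfr212 and 0.43 for Eapp.

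The starts most in favour of H3K9me2 gave much smaller ratios, which were smaller again in the other genotype. Glce, an enzyme of heparan sulfate synthesis whose start is shown above, held 117 reads of H3K9me2, 43 of H3K9me3 and 36 of H3K27me3, a log2 ratio of 1.33 (95% counting interval 0.82 to 1.83). It stood at 0.97 in the Dicer KO. Evi2b, Gsta3, Zmynd17, Gm10509, Rnf32, Agk and Gorab stood between 1.06 and 1.27, and at 0.06 to 0.39 in the Dicer KO. In the tile of the start alone H3K9me2 no longer led at Rnf32 and Gorab, at -0.99 and -0.48 on the log2 scale. Their reads are few, at 82 to 135 of H3K9me2, and they are the extremes of 12848 starts with enough reads.

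Imprinted genes, expressed from 1 parental copy, were the list in which H3K27me3 and H3K9me3 were both high, mostly at different genes. Many of them lie by a germline differentially methylated region, and H3K9me3 marks the methylated copy of such regions in ESCs. Of 29 measured, 14 were high in H3K27me3, 14 in H3K9me3 and 0 in H3K9me2, with medians of 1.32, 1.38 and 0.647. The background was 24.8% for H3K27me3 and 1.74% for H3K9me3. Inpp5f fell below the minimum of reads, and Sgce and Peg10 share 1 start region with the same reads, so 1 measurement appears as 2 genes in these counts and in those that follow.

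High H3K9me3 alone was found at 9 genes, Nnat, Sgce, Peg10, Nap1l5, Peg3, Plagl1, Zrsr1, Airn and Impact. Peg3, a zinc finger gene, held 242 reads of H3K9me3, 64 of H3K27me3 and 49 of H3K9me2, and Airn, the noncoding RNA that overlaps Igf2r, held 216, 84 and 68. The levels of H3K9me3 at these 9 were from 1.79 to 3.03. In the Dicer KO the level was higher at each of them, from 2.22 at Impact to 4 at Nnat. This difference between single libraries was not tested. In each of them H3K9me2 was below the mean, at 0.277 to 0.786, so the H3K9 marks parted there.

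High H3K27me3 alone was found at 9 genes, Mest, Ndn, Magel2, Cdkn1c, Rasgrf1, Grb10, Dlk1, Rian and Igf2r. Grb10, a growth-restricting adaptor, held 413 reads of H3K27me3, 77 of H3K9me3 and 95 of H3K9me2, and Cdkn1c, an inhibitor of the cell cycle, held 365, 62 and 56. H3K9me3 was below the mean at 5 of these 9.

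Both marks were high at Nespas, H19, Igf2, Meg3 and Mirg. Igf2, a fetal growth factor, held 329 reads of H3K27me3, 189 of H3K9me3 and 51 of H3K9me2, and H19, the noncoding RNA of the same locus, held 243, 197 and 73. Meg3 held 175 reads of H3K27me3, 228 of H3K9me3 and 55 of H3K9me2. Reads do not tell the parental copies apart, so whether both marks lay on the same copy was not tested. Mcts2, Gnas, Zim1, Snrpn, Trappc9 and Slc38a4 were high in no mark.

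**Figure D5:**
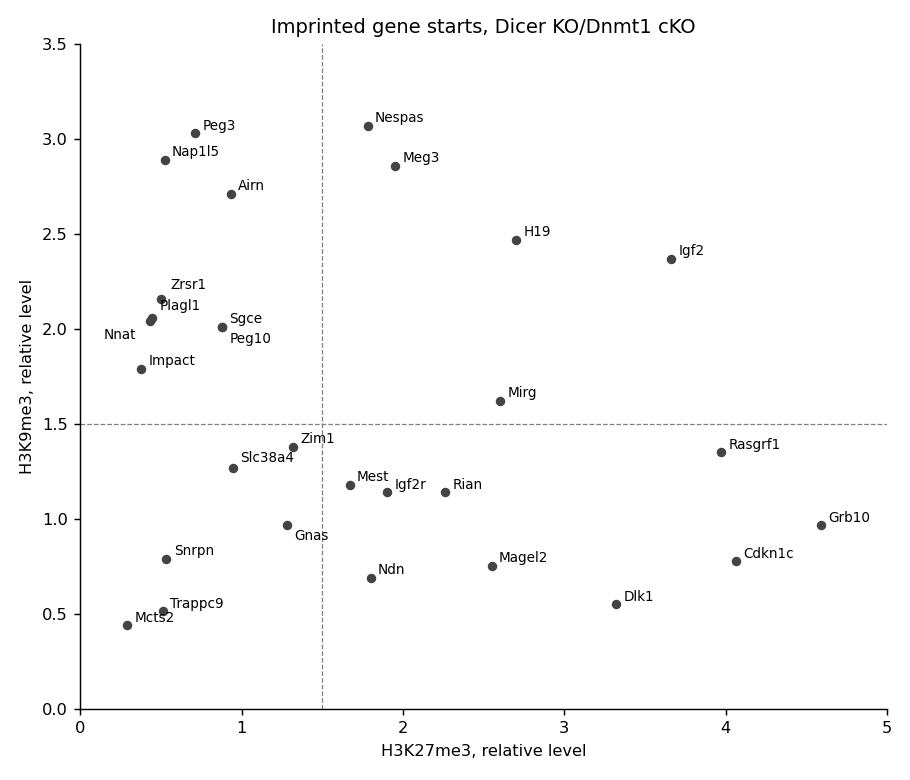
Each point is the start of an imprinted gene in Dicer KO/Dnmt1 cKO ESCs, with its relative level of H3K27me3 on the x axis and of H3K9me3 on the y axis over 10 kb, and dashed lines at 1.5 times the mean. Genes such as Peg3 (0.712 and 3.03) lie at the upper left, genes such as Grb10 (4.59 and 0.965) at the lower right, and Igf2, H19, Meg3, Nespas and Mirg at the upper right.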

How the data were processed

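ChIP-seq libraries of H3K9me2, H3K27me3 and H3K9me3 in Dicer KO/Dnmt1 cKO ESCs were compared with each other, and the same marks in Dicer KO ESCs served for reference. The authors used Trim Galore for trimming and Bowtie2 (Bowtie in the submitters' processing notes) for mapping to NCBIM37, kept reads of high mapping quality, and deposited for each tile the log2 of its reads over those of an even spread. The tiles are 2 kb wide, although the methods name a smaller size, and removal of duplicate reads is not stated for ChIP-seq. Of the value columns, 19 matched no sample used here and were left out. Antilogs of the deposited log2 values came in whole steps of 1 read, with empty tiles at 0.9 of a step, so reads were recovered, and 1 value in all 6 libraries lay over 0.1 reads from a whole number.

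Tiles on the 19 autosomes with at least 10 reads summed over the 3 Dicer KO libraries were kept, so that the filter did not use the libraries compared. Levels were scaled to the mean of these tiles. Windows held 50 tiles with at least 40 kept, and gene starts used 5 tiles. Intervals are 95% intervals for counting error (Wilson for shares), and PCR copies among the reads would widen them. Autosomal depth lay between 18378044 and 20682467 reads per library compared, so a tile has a wide interval and most results are sums. The chromosomes had the same length in the reference in 21 of 21 compared. GENCODE genes of NCBIM37 supplied 22380 protein-coding genes.

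No test was made, since each mark has 1 library. The members and lists were chosen with earlier results of these data known. Named were, for each mark, the 8 gene starts with at least 150 reads and the 5 windows with the highest ratio to the larger of the other marks, the 5 tiles rich in both H3K27me3 and H3K9me3 with the highest smaller level (each at most 1 per Mb), all members of short lists and the extremes of longer ones. Of the genes so named, 3 are not reported here. Alternatives of scaling, thresholds, filters, tile size and gene region were tried. Scripts were tested on simulated data and run with Python 3.11.15, numpy 2.4.6, pandas 2.3.3, scipy 1.17.1 and matplotlib 3.10.9.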

Additional observations from a re-analysis of the deposited data

Results flagged for a closer look

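Chromosomes X, Y and MT stood outside the comparison, and signal was found on each, which is why they are listed. Levels are relative to the mean autosomal tile of the same library, over tiles past the same minimum of reads. Over 66527 tiles of chromosome X the levels were 0.492 for H3K9me2, 0.472 for H3K9me3 and 0.465 for H3K27me3, near one another in the 3 marks. Over 917 tiles of chromosome Y they were 1.98 for H3K9me3, 1.53 for H3K9me2 and 1.34 for H3K27me3. On MT, with 9 tiles, H3K27me3 stood at 5.18, H3K9me2 at 3.09 and H3K9me3 at 1.09. In the Dicer KO the order was another, at 2.84, 1.67 and 4.79. Mitochondrial DNA carries no histones.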

How the results depend on the processing

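No paired analysis was possible because no test was made between single libraries. The correlations across 100 kb windows stayed positive under each alternative. Division by the mean in 50 bins of GC content gave 0.727 for H3K9me2 and H3K27me3, 0.632 for H3K9me2 and H3K9me3 and 0.586 for H3K27me3 and H3K9me3, which turned the order of the first 2 pairs. Pearson correlation of log2 levels gave 0.739 for H3K9me2 and H3K9me3 and 0.588 for H3K27me3 and H3K9me3. Across tiles, with pairs in the order H3K9me2 and H3K27me3, H3K9me2 and H3K9me3, H3K27me3 and H3K9me3, no filter gave 0.542, 0.534 and 0.5, a minimum of 30 reads gave 0.225, 0.237 and 0.179, and tiles of 10 kb gave 0.531, 0.533 and 0.47. The overlap of rich tiles, as a share of the smaller set in the same order, was 5.01%, 6.4% and 4.4% for the 1% of tiles with most reads of each mark, and 25.3%, 38.9% and 3.59% without tiles rich in all 3 marks in the Dicer KO. At 2 times the mean tile it was 20.7% and 9.6% for the first 2 pairs and 13% for H3K27me3 and H3K9me3.

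At a fold of 2, windows with separated marks fell to 741 for H3K9me2 over H3K27me3, 465 for H3K27me3 over H3K9me2, 0 for H3K9me2 over H3K9me3, 58 for H3K9me3 over H3K9me2, 519 for H3K27me3 over H3K9me3 and 774 for H3K9me3 over H3K27me3, since fewer pass a higher fold. With the median log2 ratio set to 0 there were 2150 for H3K9me2 over H3K27me3 and 2677 for the reverse, which turned their order, 2 for H3K9me2 over H3K9me3 and 713 for H3K9me3 over H3K9me2, and a trimmed mean of log2 ratios gave 2 and 707. With each library divided by its median window, a choice added after the data were seen, H3K9me2 was highest in 27.8% of windows.

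Over gene bodies in place of starts, imprinted genes high in H3K9me3 fell to 30%, germline genes high in H3K27me3 to 21.7%, and all genes high in H3K9me2 rose to 2.47%. In the tile of the start alone, 5.88% of all starts were high in H3K9me2 and 4.31% in H3K9me3. In that tile, H3K9me2 no longer led at Rnf32 (-0.99) and Gorab (-0.48) on the log2 scale. Among the ratios at named gene starts, 14 others moved beyond their interval in that tile and 15 over gene bodies. The cause of these changes was not tested, and the other 37 values of the comparisons did not move by more than their interval or by 1.5 times.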

Other observations

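Whole chromosomes differed little between marks. Over the autosomes the mean level of a chromosome lay between 0.855 and 1.11 for H3K9me2, between 0.892 and 1.09 for H3K27me3 and between 0.906 and 1.11 for H3K9me3. Chromosome 14 was the highest in all 3 marks, at 1.11 for H3K9me2, 1.11 for H3K9me3 and 1.09 for H3K27me3. Chromosome 17 was the lowest in all 3, at 0.855, 0.906 and 0.892. Chromosome 11 had H3K27me3 at 1.08 with H3K9me2 at 0.97 and H3K9me3 at 0.968. Chromosome copy number was not measured.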
